A study of Mus musculus with 45 samples.

Results

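The levels of 10 glucocorticoid-responsive genes, out of 18135 genes in the deposited table, were described in 3 brain regions of Shank3-mutant mice. The genes were Fkbp5, Sgk1, Tsc22d3, Zbtb16, Hif3a, Nfkbia, Pdk4, Cdkn1a, Errfi1 and Sult1a1. They were chosen by their measured values in mutant and WT mice, because glucocorticoid targets such as Hif3a and Nfkbia leaned toward higher values in Shank3-HM than in WT mice across the 3 regions. The difference between Shank3-HM and WT mice is therefore given for these genes as a description without a test. Differences between regions, differences between Shank3-HT and WT mice and the spread from sample to sample were not used in choosing them.

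The study sequenced mRNA from the prefrontal cortex (here cortex), hippocampus and striatum of male C57BL/6J mice aged 13 weeks. WT mice, Shank3-HT mice (heterozygous) and Shank3-HM mice (homozygous, labelled knock-out) were compared, and each of the 9 groups held 5 of the 45 samples. The mutant allele lacks exons 14–16 of Shank3, a postsynaptic scaffold gene, in all cells of the body, so that no cell type in these tissues kept the full gene in Shank3-HM mice. The labels number the samples from 1 to 5 within each genotype and region, and do not say whether one number marks one mouse in all regions.

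Glucocorticoids (corticosterone in mice) are steroid hormones of the adrenal gland that rise and fall over the day and in stress. They bind the glucocorticoid receptor, encoded by Nr3c1, and in the brain also the mineralocorticoid receptor, encoded by Nr3c2. The bound receptors enter the nucleus, sit on short palindromic DNA elements and change transcription, and the 10 genes are widely used readouts of that step in brain and other tissues. Most of them are also regulated by other signals, such as NF-kappaB for Nfkbia, p53 for Cdkn1a and fasting for Pdk4.

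Shank3 levels matched the labels in every region. All 5 Shank3-HT samples lay below all 5 WT samples and all 5 Shank3-HM samples lay below all 5 Shank3-HT samples. The Shank3-HM minus WT difference was -0.98 in cortex, -1.06 in hippocampus and -1.11 in striatum on the log2(value + 1) scale (adjusted p = 4.8e-07, 1.2e-10 and 3.7e-07, limma with Benjamini-Hochberg adjustment). The Shank3-HT difference was -0.38, -0.43 and -0.50 (adjusted p = 0.288, 0.000219 and 0.0494). Some libraries stood apart by markers of other cell types. The summed value of 6 striatal projection neuron markers was 20945 in Shank3-HM cortex replicate 2 and 2074 to 2905 in the other cortex samples. The summed value of 12 choroid plexus markers (choroid plexus is the tissue that makes cerebrospinal fluid) ran from 5945 to 185095 among hippocampus samples, with the highest in WT replicate 4. In the striatum it was 108487 in Shank3-HT replicate 5 and 4818 to 8653 in the others.

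The DNA around 2 of the genes is shown because Sgk1 and Nfkbia were the members whose values ran most closely together from sample to sample (described further on), and because each holds a textbook element. RefSeq promoter windows (GRCm38.p6, 250 bases before to 50 bases after each annotated start) were at hand for 9 of the 10 genes, 18 windows in all. The full palindrome of a canonical glucocorticoid response element (AGAACA, any 3 bases, then TGTTCT) was in 3 of 32851 windows of all genes (0.00913%, both strands searched), and 1 of the 3 belongs to Sgk1. That window starts a short Sgk1 transcript at chr10:21993890 on the plus strand, inside an intron of the longer Sgk1 transcripts. The matched bases lie at chr10:21993701-21993715, 189 bases before the start. The 250 bases before the start, chr10:21993640-21993889, are shown 5′ to 3′ with the element in capitals.
Sgk1: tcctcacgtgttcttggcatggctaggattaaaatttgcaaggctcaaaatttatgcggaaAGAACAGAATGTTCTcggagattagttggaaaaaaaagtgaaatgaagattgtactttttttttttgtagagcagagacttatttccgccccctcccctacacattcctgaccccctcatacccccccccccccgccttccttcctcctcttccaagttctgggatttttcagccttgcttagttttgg
Nfkbia is known for kappaB elements, through which NF-kappaB switches on its own inhibitor. The pattern searched (GGG, any 3 bases, then TTCC) was in 5.56% of all windows, and among the 18 it was found only in the Nfkbia window, 29 bases before the start and read on the opposite strand. The 250 bases before the start, chr12:55492648-55492897, are on the minus strand, upstream of the annotated gene, and are shown in the direction of transcription with the match in capitals.
Nfkbia: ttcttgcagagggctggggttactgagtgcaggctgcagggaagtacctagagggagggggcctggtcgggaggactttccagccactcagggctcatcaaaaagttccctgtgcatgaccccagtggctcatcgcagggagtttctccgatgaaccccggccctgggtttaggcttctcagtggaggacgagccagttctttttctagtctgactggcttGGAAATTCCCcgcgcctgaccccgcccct
A single arm, AGAACA, was in 5 of the 18 windows, from Sgk1, Sult1a1 and Tsc22d3, and in 19.0% of all windows. The core ACANNNTGT, which overlaps both arms and lies within the full palindrome, was in 2 of the 18, both of Sgk1, and in 6.85% of all. These matches describe letters in the windows and were not tests of receptor binding.

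The levels of most of the 10 genes in WT mice differed between regions, and the order of the regions was not the same for all genes. In every region each of the 10 had a mean value above 10, the minimum for testing. Values are normalized counts as deposited, and differences are on the log2(value + 1) scale with the standard error (SE) and adjusted p of one limma fit over all 45 samples. In bulk tissue, fewer cells of a type and less RNA per cell cannot be told apart.

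**Figure D1:**
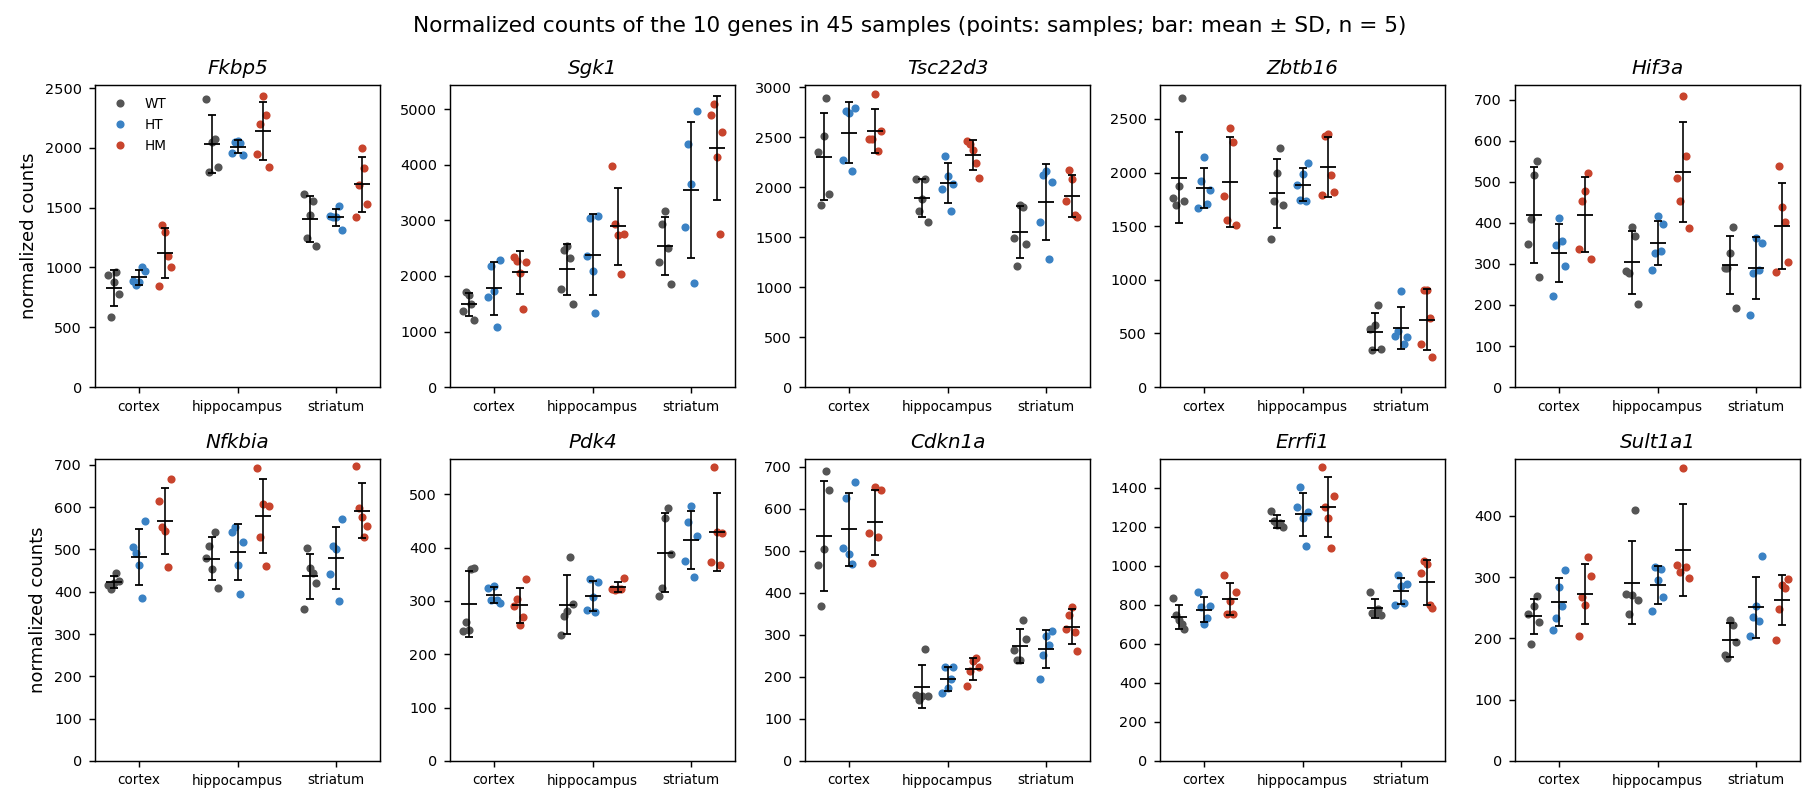
Normalized counts (linear axes from 0) of the 10 genes by region, with WT in grey, Shank3-HT in blue and Shank3-HM in red. Points are samples in the order of their numbers, and bars show mean ± SD (n = 5). Fkbp5 and Errfi1 were highest in hippocampus, Cdkn1a in cortex and Sgk1 in striatum, and Zbtb16 was lowest in striatum.

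Fkbp5 (ENSMUSG00000024222, chr17:28399094-28517527, minus strand, GRCm38) encodes a co-chaperone that lowers the affinity of the glucocorticoid receptor for hormone and so closes a feedback loop. Its values in WT replicates 1 to 5 were 936, 588, 882, 964 and 778 in cortex, 2407, 1798, 2053, 2076 and 1836 in hippocampus and 1615, 1243, 1437, 1552 and 1176 in striatum. The 3 sets of 5 did not overlap, with the hippocampus highest and the cortex lowest. Hippocampus minus cortex was 1.31 (SE 0.11, adjusted p = 4.2e-13), striatum minus cortex 0.77 (SE 0.11, adjusted p = 1.3e-07) and striatum minus hippocampus -0.54 (SE 0.11, adjusted p = 7.9e-05). All 3 differences passed the threshold in Shank3-HT and Shank3-HM mice too, in the same direction.

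Sgk1 (ENSMUSG00000019970, chr10:21882184-21999903, plus strand) encodes a serine/threonine kinase that acts on ion channels and transporters, and is induced within a short time of a rise in corticosterone. In WT mice its values were 1377, 1712, 1657, 1501 and 1201 in cortex, 1766, 2473, 2530.1, 2319 and 1498 in hippocampus and 2253, 2941, 3162, 2506 and 1860.3 in striatum. All 5 striatal values lay above the cortical values, and the hippocampal values overlapped both other sets. Within each of the 5 WT numbers the value rose from cortex to hippocampus to striatum, although the labels do not state that a number marks one mouse. Striatum minus cortex was 0.76 (SE 0.23, adjusted p = 0.00409). Hippocampus minus cortex was 0.49 and striatum minus hippocampus 0.27 (adjusted p = 0.0753 and 0.322), so that neither neighbouring step passed the threshold in this fit. Both steps passed the threshold with the sample number added to the fit as a block, as given in the last section. The step from cortex to hippocampus passed it in a fit of the WT samples alone (adjusted p = 0.0165) and without hippocampus WT replicate 5 (adjusted p = 0.0354), and without that replicate striatum minus hippocampus was 0.15 (adjusted p = 0.612). The step from hippocampus to striatum passed it in Shank3-HT and Shank3-HM mice (0.56, adjusted p = 0.0371 and 0.57, adjusted p = 0.0318), and whether it differed between Shank3-HM and WT mice was not tested.

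Among the transcriptional regulators, Zbtb16 (ENSMUSG00000066687, chr9:48654297-48836222, minus strand) showed the widest gap of the 10 genes. It encodes PLZF, a zinc finger repressor. Its WT values were 1763, 1697, 1876, 2697 and 1731 in cortex, 1379, 1737, 2000.1, 2227 and 1697 in hippocampus and 537, 347, 575, 762 and 357 in striatum. No striatal value reached the lowest value of the other regions, while cortex and hippocampus overlapped. Striatum minus cortex was -1.96 (SE 0.23, adjusted p = 5.5e-10) and striatum minus hippocampus -1.85 (SE 0.23, adjusted p = 2.4e-09), and hippocampus minus cortex was -0.11 (adjusted p = 0.729).

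Tsc22d3 (ENSMUSG00000031431, chrX:140539528-140600659, minus strand) encodes GILZ, a leucine zipper protein that binds NF-kappaB and AP-1 and carries part of the anti-inflammatory action of glucocorticoids. Its WT mean was highest in cortex, then hippocampus, then striatum (2303 ± 436, 1891 ± 189 and 1550.2 ± 260, SD, n = 5), and neighbouring sets overlapped. Striatum minus cortex was -0.57 (SE 0.12, adjusted p = 8.7e-05) and striatum minus hippocampus -0.30 (SE 0.12, adjusted p = 0.0338). The second call did not hold in a fit of the WT samples alone or without hippocampus WT replicate 1 or 4 or striatum WT replicate 1, 2 or 5, with an adjusted p of up to 0.146.

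Hif3a (ENSMUSG00000004328, chr7:17031507-17062427, minus strand) encodes a hypoxia-inducible factor subunit whose shorter forms restrain the other subunits. Its WT means were 418 ± 117 in cortex, 304 ± 76 in hippocampus and 298 ± 71.4 in striatum (SD, n = 5), and all sets overlapped. Cortex was the highest, but neither hippocampus minus cortex (-0.45, adjusted p = 0.0829) nor striatum minus cortex (-0.48, adjusted p = 0.0529) passed the threshold. The first passed it without cortex WT replicate 5 or hippocampus WT replicate 3 (adjusted p = 0.0242 and 0.0447). The second passed it without cortex WT replicate 1 or 5 or striatum WT replicate 4 (adjusted p = 0.0458, 0.0139 and 0.0256).

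Nfkbia and Errfi1 encode inhibitors of signalling. Nfkbia (ENSMUSG00000021025, chr12:55489410-55492647, minus strand) encodes IκBα, which holds NF-kappaB in the cytoplasm, and its WT means were close in the 3 regions (423 ± 13.6, 479 ± 50.7 and 437 ± 52.9 in cortex, hippocampus and striatum, SD, n = 5). No region difference of Nfkbia passed the threshold in any genotype. Errfi1 (ENSMUSG00000028967, chr4:150853919-150868892, plus strand) encodes MIG6, a feedback inhibitor of the EGF receptor, and stood apart in hippocampus. Its WT values were 1284, 1229.5, 1208, 1219 and 1199 in hippocampus, against 679 to 835 in cortex and 748 to 868 in striatum. Hippocampus minus cortex was 0.74 and striatum minus hippocampus -0.65 (SE 0.08 for both, adjusted p = 2.6e-10 and 3.4e-09), while striatum minus cortex was 0.09 (adjusted p = 0.363).

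Cdkn1a (ENSMUSG00000023067, chr17:29090976-29100727, plus strand) encodes p21, an inhibitor of cyclin-dependent kinases that stops the cell cycle. Its WT values were 467, 369, 505, 691 and 644 in cortex, 157, 145, 155, 267 and 155 in hippocampus and 263, 240.4, 239, 335 and 291 in striatum. The cortex lay above both other regions in every sample, and only hippocampus WT replicate 4 reached into the striatal range. Hippocampus minus cortex was -1.60 (SE 0.15, adjusted p = 8.8e-12), striatum minus cortex -0.94 (SE 0.15, adjusted p = 1.2e-06) and striatum minus hippocampus 0.66 (SE 0.15, adjusted p = 0.000303). All 3 passed the threshold in each genotype.

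Pdk4 and Sult1a1 act in metabolism. Pdk4 (ENSMUSG00000019577, chr6:5483351-5496309, minus strand) encodes a kinase that shuts off pyruvate dehydrogenase and turns cells from glucose to fatty acid oxidation. Its WT mean was 390.4 ± 74.2 in striatum, 294 ± 61.2 in cortex and 293 ± 54.7 in hippocampus (SD, n = 5), with overlap between all sets. Striatum minus cortex and striatum minus hippocampus were both 0.41 (SE 0.12, adjusted p = 0.00445 and 0.00478). The summed value of 10 oligodendrocyte markers (myelin-making cells) was also highest in striatum, at 66951 to 87379 in WT cortex, 144032 to 156964 in WT hippocampus and 186733 to 247776 in WT striatum, and its part in the Pdk4 difference was not tested. Sult1a1 (ENSMUSG00000030711, chr7:126672865-126676432, minus strand) encodes a phenol sulfotransferase, and its WT mean was 291 ± 67.5 in hippocampus, 236 ± 29.2 in cortex and 197 ± 27.7 in striatum (SD, n = 5). Of its region differences, striatum minus hippocampus passed the threshold (-0.54, SE 0.15, adjusted p = 0.00167).

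Counted together, 3 of the 10 genes differed between hippocampus and cortex in WT mice (2 higher and 1 lower in the hippocampus), where 46.6% of all 16708 genes tested passed the threshold. Between striatum and cortex 6 genes differed (3 higher and 3 lower in the striatum), against 59.3% of all genes. Between striatum and hippocampus 7 differed (2 higher and 5 lower), against 56.1%. In Shank3-HT mice the counts were 4, 6 and 6 (45%, 58.6% and 53.6% of all genes), and in Shank3-HM mice 3, 6 and 8 (42.2%, 57.4% and 54.8%). Fkbp5, Cdkn1a and Errfi1 passed in the first comparison in all 3 genotypes, and Fkbp5, Sgk1, Tsc22d3, Zbtb16, Pdk4 and Cdkn1a in the second. In the third, Fkbp5, Zbtb16, Pdk4, Cdkn1a and Errfi1 passed in all 3. Without cortex WT replicate 5 the first count was 5 rather than 3, with Tsc22d3 and Hif3a added.

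**Figure D2:**
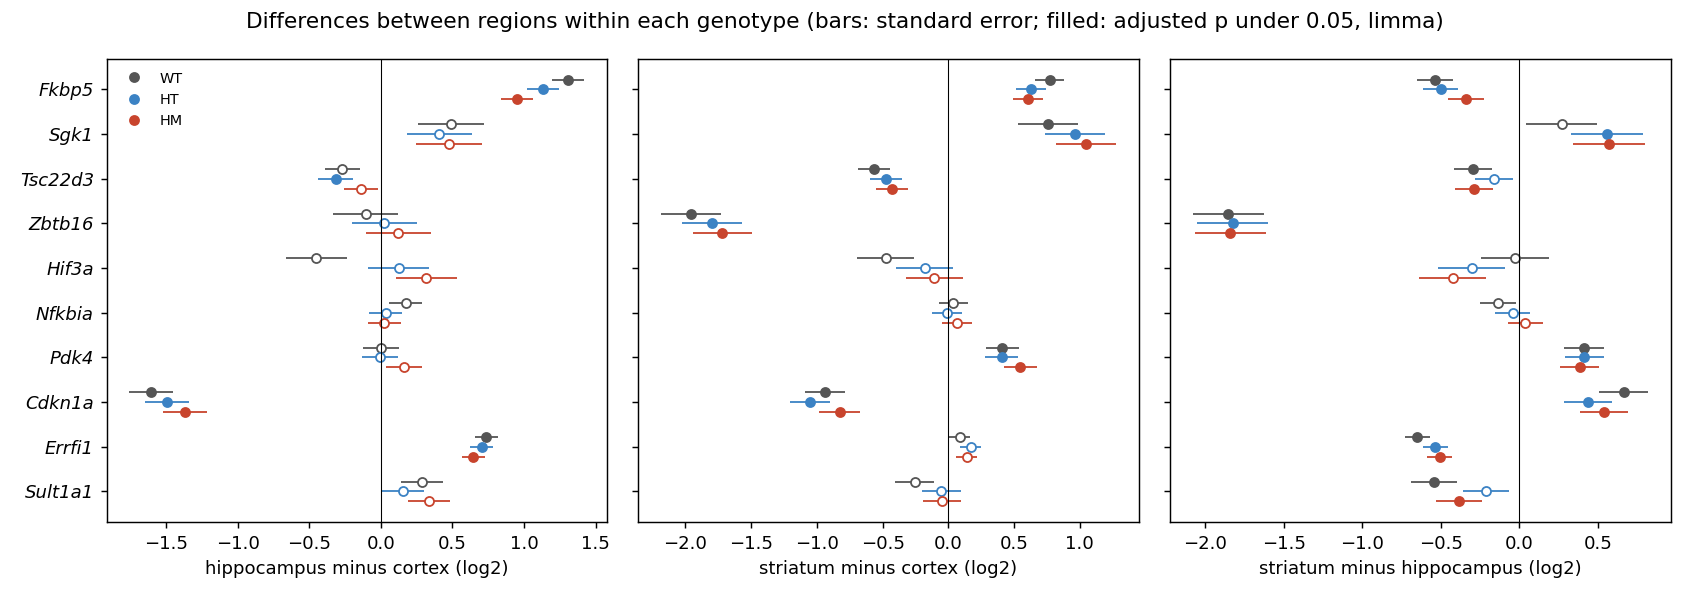
Difference between 2 regions on the log2(value + 1) scale for each of the 10 genes within WT (grey), Shank3-HT (blue) and Shank3-HM mice (red). Bars are standard errors, filled points have an adjusted p under 0.05 (limma), and open points do not. The largest gaps are those of Zbtb16 (striatum below cortex and hippocampus), Cdkn1a (cortex highest) and Fkbp5 (cortex lowest).

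The receptors that read glucocorticoids also differed between regions. Nr3c2, the high-affinity mineralocorticoid receptor, had WT values of 4372, 5093, 5037, 3663 and 4498 in hippocampus, 1418, 1329, 1284, 1137 and 1242 in striatum and 932, 879.9, 851, 874 and 829 in cortex, and the 3 sets did not overlap. Hippocampus minus cortex was 2.37 and striatum minus hippocampus -1.82 (SE 0.08, adjusted p = 7.5e-27 and 1.9e-23). Nr3c1, the glucocorticoid receptor itself, was in the opposite order, with a WT mean of 3498 ± 181 in cortex, 2782 ± 110 in striatum and 2158 ± 349 in hippocampus (SD, n = 5). Its hippocampus minus cortex difference was -0.71 (SE 0.07, adjusted p = 4.7e-11). Hsd11b1, the enzyme that regenerates active corticosterone inside cells, was lower in striatum than in cortex (-1.62, SE 0.17, adjusted p = 4.2e-11) and the hippocampus (-2.47, SE 0.17, adjusted p = 1.8e-16). The chaperone gene Hsp90ab1 was higher in hippocampus than in cortex (0.32, SE 0.06, adjusted p = 2.3e-05). Of the 18 genes of this receptor system list, 12 differed between hippocampus and cortex (8 higher and 4 lower in the hippocampus), 9 between striatum and cortex (3 higher and 6 lower) and 13 between striatum and hippocampus (4 higher and 9 lower), against 46.6%, 59.3% and 56.1% of all genes.

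A list of 30 other glucocorticoid-induced genes had 19 members that differed between hippocampus and cortex in WT mice (11 higher and 8 lower in the hippocampus). Between striatum and cortex 17 differed (8 higher and 9 lower) and between striatum and hippocampus 20 (8 higher and 12 lower). The shares over all genes were the 46.6%, 59.3% and 56.1% given above. Foxo1, a transcription factor restrained by insulin signalling, was higher in striatum than in cortex by 3.03 (SE 0.13, adjusted p = 4.0e-23), and Cebpd, a transcription factor of acute responses, was higher in hippocampus than in cortex by 2.45 (SE 0.24, adjusted p = 1.9e-11). The repressor gene Bcl6 was highest in hippocampus (0.88 above the cortex, with the striatum 1.37 below the hippocampus). The small GTPase gene Arl4d was higher in striatum than in hippocampus by 2.12, and Pik3r1, a subunit of PI3 kinase, was lower in hippocampus than in cortex by 0.88 (adjusted p = 6.3e-15 and 6.7e-15). Members of the list thus differed in both directions in each comparison, as the 10 genes did.

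The contrast that chose the genes, Shank3-HM against WT, is described without a test. The Shank3-HM mean of log2(value + 1) was higher for 9 of the 10 genes in cortex, 10 in hippocampus and 10 in striatum, as it was for 49.1%, 51.5% and 50.3% of all genes. By means of the values themselves the cortex count was 8, since Pdk4 was 294 in WT and 292 in Shank3-HM mice. The median difference over the 10 genes was 0.17, 0.26 and 0.29 in cortex, hippocampus and striatum, against -0.0025, 0.0037 and 0.00072 over all genes tested. Of the 50 single Shank3-HM values (10 genes in 5 samples), 38 in cortex, 44 in hippocampus and 43 in striatum lay above the WT mean of the gene. The same WT samples enter every mutant comparison of a region, and the choice of genes fixes the direction. Without WT replicate 4 in all 3 regions, the median was 0.23, 0.32 and 0.36, and without cortex Shank3-HM replicate 2, the library with striatal marker RNA, 8 of the 10 genes were higher in cortex with a median of 0.19. Without cortex WT replicate 2 the cortical median was 0.11, with 7 of the 10 genes higher.

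Nfkbia was the gene with the least overlap. Its values in cortex replicates 1 to 5 were 415, 407, 422, 443 and 426 in WT, 505, 491, 464, 386 and 568 in Shank3-HT and 616, 554, 545, 459.5 and 667 in Shank3-HM mice. In the striatum WT values were 358, 503, 456, 444 and 422, Shank3-HT values 441, 508, 500.3, 379 and 572, and Shank3-HM values 698, 598, 578, 530.2 and 555. In both regions all 5 Shank3-HM values lay above all 5 WT values, as was the case for 0.388% of all genes in cortex and 1.1% in striatum. In cortex 4 Shank3-HT values lay above every WT value and 1 below, and in striatum the Shank3-HT values spread across both ranges. The Shank3-HM mean was 1.34 times the WT mean in cortex and 1.36 times in striatum (log2 difference 0.42 and 0.44, SE of the difference 0.09 and 0.10). In the hippocampus the values were 479, 509, 453, 542 and 410.0 in WT and 694, 530.3, 607, 462 and 603 in Shank3-HM mice, and Shank3-HM replicates 2 and 4 lay within the WT range.

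Hif3a had its largest difference in hippocampus. Its hippocampal values were 282, 278, 390.2, 368 and 202 in WT, 286, 327, 416, 332 and 397 in Shank3-HT and 509, 453, 709, 563 and 387 in Shank3-HM mice. Shank3-HM replicate 5 lay just below the highest WT value and the other 4 above it, with a ratio of means of 1.72 (log2 difference 0.79, SE 0.22). In the striatum the Shank3-HM mean was 1.32 times the WT mean, with wide overlap, and the log2 difference of 0.39 was 0.25 without WT replicate 5. In the cortex the Shank3-HM mean was 419.8 ± 91 against a WT mean of 418 ± 117 (SD, n = 5), a log2 difference of 0.02 (SE 0.24), so that the higher level was not seen there.

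Sgk1 had the largest difference of the 10 genes in striatum. Its striatal values were 2253, 2941, 3162, 2506 and 1860.3 in WT, 2881, 4367, 3646, 1865 and 4971 in Shank3-HT and 4902, 5087, 4137, 2749 and 4586 in Shank3-HM mice. Shank3-HM replicate 4 lay inside the WT range and the other 4 above it, and the ratio of means was 1.69 (log2 difference 0.75, SE 0.21). In the cortex the log2 difference was 0.46 and in hippocampus 0.45 (SE 0.16 and 0.21), in each case with replicate 4 inside the WT range and the other 4 Shank3-HM samples above it.

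Tsc22d3 was the only other gene with complete separation in a region. Its hippocampal values were 2077, 1764, 1876, 2082 and 1654 in WT and 2462, 2433, 2374, 2246 and 2095 in Shank3-HM mice, a log2 difference of 0.30 (SE 0.08). The lowest Shank3-HM value lay just above the highest WT value, as held for all 5 against all 5 values in 0.471% of all genes. Fkbp5 was higher in Shank3-HM mice by 0.43 in cortex, 0.07 in hippocampus and 0.27 in striatum (SE 0.18, 0.11 and 0.13, with 0.026 to 0.14 in hippocampus when 1 library was left out), so that its difference was smallest in the region where its level was highest. The group sets of Fkbp5 overlapped in every region.

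The other 5 genes overlapped between Shank3-HM and WT mice in every region. Sult1a1 was higher by 0.20, 0.24 and 0.40 in cortex, hippocampus and striatum, and Errfi1 by 0.17, 0.08 and 0.22. In hippocampus Sult1a1 was higher by 0.12 without Shank3-HM replicate 3 and by 0.37 without WT replicate 4, and Errfi1 by 0.02 without Shank3-HM replicate 1. In cortex the Sult1a1 difference was 0.12 without WT replicate 2 or without Shank3-HM replicate 4. Cdkn1a was higher by 0.11, 0.35 and 0.22. The differences of Pdk4 were 0.01, 0.17 and 0.14 and those of Zbtb16 -0.03, 0.19 and 0.21, and for both the SE exceeded the difference in cortex and striatum. When each library was left out in turn, the cortical difference changed sign for Pdk4 (-0.056 to 0.087), Zbtb16 (-0.13 to 0.088), Cdkn1a (-0.014 to 0.21, below 0 without WT replicate 2) and Hif3a (-0.12 to 0.13). Outside cortex no sign changed, and the striatal difference of Zbtb16 ran from 0.038 to 0.46. By means of the values, the WT mean was lowest, the Shank3-HT mean intermediate and the Shank3-HM mean highest for 7 genes in cortex, 8 in hippocampus and 8 in striatum, and Sgk1, Tsc22d3, Nfkbia and Errfi1 had this order in all 3 regions. Over all genes 18%, 17.6% and 16% had it, and the counts of the 10 genes follow in part from their choice by the Shank3-HM mean.

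**Figure D3:**
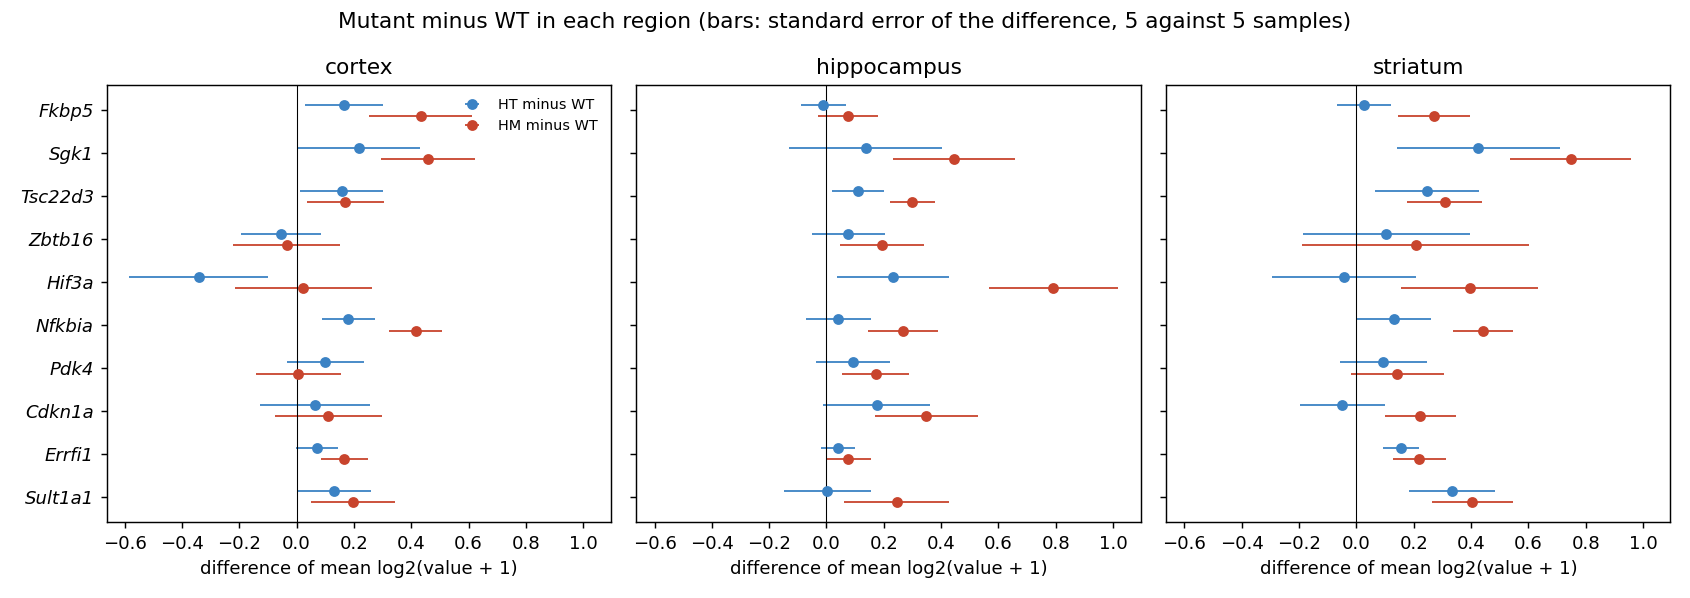
Difference of the mean log2(value + 1) between mutant and WT mice for the 10 genes in each region, with Shank3-HT minus WT in blue and Shank3-HM minus WT in red. Bars are the standard error of the difference (5 against 5 samples), and the line marks 0. Shank3-HM points, the contrast by which the genes were chosen, lie to the right of 0 for every gene except Zbtb16 in cortex, and Shank3-HT points for 8, 9 and 8 of the 10 genes.

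Shank3-HT against WT was not used in choosing the genes, although it shares its WT samples with the contrast that was. With limma, 0 of the 10 genes passed the threshold in any region, where 0% of all genes in cortex, 0.00603% in hippocampus and 0.00607% in striatum did. At an unadjusted p under 0.05 there were 0, 0 and 1 gene, where 2.68%, 5.26% and 7.43% of all genes were. The Shank3-HT mean of log2(value + 1) was higher for 8 genes in cortex, 9 in hippocampus (8 by means of the values, with Sult1a1 lower) and 8 in striatum, against 49.6%, 52.0% and 48.0% of all genes, and the median difference was 0.12, 0.08 and 0.12. The gene with an unadjusted p under 0.05 was Sult1a1 in striatum, at 0.33 (95% interval 0.04 to 0.63, adjusted p = 0.656), with values of 173, 168, 229.7, 221 and 195 in WT and 203, 234, 253, 229 and 334 in Shank3-HT mice. Its highest Shank3-HT value was that of replicate 5, the striatal library with the high choroid plexus marker sum, and without it the difference was 0.23.

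The intervals of the Shank3-HT differences were wide for the genes that varied most. For Sgk1 in striatum the difference was 0.42 (95% interval -0.05 to 0.90, adjusted p = 0.719), and Shank3-HT values ran from 1865 to 4971, a wider range than in either other genotype. Without Shank3-HT replicate 5, which held the highest value and the high choroid plexus marker sum, the difference was 0.28. For Hif3a it was -0.34 in cortex (95% interval -0.76 to 0.08), 0.23 in hippocampus (-0.14 to 0.60) and -0.04 in striatum (-0.49 to 0.41), with no Shank3-HT cortex sample above the WT mean. The hippocampal difference was 0.096 without WT replicate 5, and the cortical one -0.21 without Shank3-HT replicate 1. For Nfkbia it was 0.18 in cortex (-0.03 to 0.39), 0.04 in hippocampus (-0.20 to 0.28) and 0.13 in striatum (-0.10 to 0.36), or 0.065 in striatum without Shank3-HT replicate 5. A test of whether the Shank3-HT difference of a gene itself differed between regions found none of the 10 past the threshold, and the smallest adjusted p was 0.894. The p-values measure the spread between these samples.

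The 30 other glucocorticoid-induced genes were also set beside the 10. In Shank3-HM mice 0 of the 30 passed the threshold with limma in any region, with 7, 5 and 7 at an unadjusted p under 0.05 in cortex, hippocampus and striatum, as were 5.49%, 4.73% and 7.43% of all genes. After adjustment a share of 0.0121%, 0.00603% and 0.182% of all genes passed. The Shank3-HM mean was higher for 27, 27 and 25 of the 30, with medians of 0.13, 0.11 and 0.15, against 49.1%, 51.5% and 50.3% of all genes. The list was written with earlier results of these data known, and the same samples chose the 10 genes. The counts are therefore a description and not a separate check. In Shank3-HT mice 0 passed, with 1, 2 and 4 at an unadjusted p under 0.05 (2.68%, 5.26% and 7.43% of all genes), and the mean was higher for 25, 21 and 20 of the 30 (medians 0.07, 0.04 and 0.06). Over all genes the Shank3-HT mean was higher in 49.6%, 52.0% and 48.0%. Of the 18 receptor system genes, 0 passed in either mutant. The mean was higher for 11, 9 and 13 of them in Shank3-HM and 11 in each region in Shank3-HT mice, with 0, 0 and 1 at an unadjusted p under 0.05 in Shank3-HM and 0 in Shank3-HT mice. The shares over all genes are those just given.

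Markers of other cell types were compared between mutant and WT mice by counts of direction, as a description without a test. In Shank3-HM mice, 9 of 10 endothelial markers had a lower mean than in WT mice in each region, and in cortex their sums ran from 7229 to 8479 against 8072 to 10001. Microglia markers were lower in 8 of 8 cases in Shank3-HM cortex, 7 of 8 in hippocampus and 6 of 8 in striatum. Without hippocampus WT replicate 4 the hippocampal endothelial count was 6 of 10. In Shank3-HM cortex 6 of 6 mural (vessel wall) markers also had a lower mean. There, 6 of 6 cortical projection neuron markers were lower and 6 of 6 striatal projection neuron markers higher (median log2 difference -0.23 and 0.96), and without replicate 2, the library with striatal marker RNA, 4 of 6 were lower and 5 of 6 higher (medians -0.03 and 0.20). Of 4 erythrocyte markers, 4 had a lower mean in each mutant and region. In the hippocampus, 10 of 10 immediate early genes (activity markers of neurons) had a higher mean in both mutants, and in cortex 10 of 10 did in Shank3-HT and 8 of 10 in Shank3-HM mice. In Shank3-HT striatum 10 of 10 astrocyte markers had a higher mean, with a median log2 difference of 0.088. Their sums overlapped (128605 to 142458 against 114447 to 140066 in WT mice). Choroid plexus markers were higher in Shank3-HT striatum in 12 of 12 cases, or 7 of 12 without replicate 5 (median 1.37 and 0.26). They were higher in Shank3-HM striatum in 10 of 12 (median 0.23). Both counts depend on which markers met the minimum mean of 10 over all 15 striatal samples. Shank3-HT replicate 5 entered that mean, so some markers may have met it only through this library, which was not tested. In cortex 5 of the 12 met it. In Shank3-HM hippocampus 10 of 12 were higher, or 12 of 12 without WT replicate 4 (median 0.26 and 0.73), and in Shank3-HT hippocampus 12 of 12 were lower with and without it (median -1.26 and -0.63). In the striatum, 10 of 10 oligodendrocyte markers had a higher mean in both mutants, with sums of 203374 to 345307 in Shank3-HT, 207230 to 314323 in Shank3-HM and 186733 to 247776 in WT mice. In cortex 10 of 10 were higher in Shank3-HT and 9 of 10 in Shank3-HM mice. The hippocampus went the other way, with 9 of 10 lower in Shank3-HM and 6 of 10 lower in Shank3-HT mice (median -0.075 and -0.0089). Striatal Shank3-HT replicate 4 had the lowest sum and replicate 3 the highest in their group, and the same 2 samples held the lowest and highest Shank3-HT values of Tsc22d3 and of Pdk4. In the hippocampus the choroid plexus sums were 8904 to 185095 in WT, 5945 to 55137 in Shank3-HT and 13042 to 92851 in Shank3-HM mice. Over the 15 hippocampal samples with group means removed, as a description, the choroid plexus sum had an r of 0.69 with Pdk4, 0.62 with Cdkn1a, 0.55 with Zbtb16 and 0.54 with Sult1a1, and of 0.15 to 0.49 with the other 6 genes. Over the 15 striatal samples r was 0.66 with Sult1a1, 0.57 with Sgk1 and 0.54 with Nfkbia. Shank3-HT replicate 5, with the far highest striatal sum (108487), also had the highest deviation of its group for these genes (0.43, 0.57 and 0.27). The striatal r may therefore rest largely on this library, and r without it was not computed. The part of these cell types in the differences of the 10 genes was not tested.

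From sample to sample, several of the 10 genes varied in ways that recurred across regions. Deviations from the mean of the genotype and region, on the log2(value + 1) scale, were compared between regions for samples of one genotype and one number (15 pairs of samples per pair of regions). This takes the number as a link between regions, which the labels do not state. Sgk1 had the highest mean r of the 10 genes. Its values in Shank3-HT replicates 1 to 5 were 1623, 2170.2, 1722, 1082 and 2279 in cortex, 2360.1, 3048, 2091, 1331 and 3083 in hippocampus and 2881, 4367, 3646, 1865 and 4971 in striatum. Replicate 4 was lowest and replicate 5 highest in all 3 regions. In WT mice replicate 5 and in Shank3-HM mice replicate 4 held the lowest Sgk1 value of every region.

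Pearson's r for Sgk1 was 0.93 between cortex and hippocampus, 0.98 between cortex and striatum and 0.91 between hippocampus and striatum (Spearman's rho 0.94, 0.96 and 0.86). The permutation p, from 100000 draws that shuffled numbers within genotypes and adjusted over 30 tests, was 0.00015, 0.00015 and 0.0007 for r and 0.00075, 0.00075 and 0.0069 for rho, and the first 2 values for r rest on the smallest p these draws can give. Without the 2 samples farthest from the median, r was 0.88, 0.97 and 0.82. Over all genes the median r of the 3 region pairs was 0.13, 0.15 and 0.15, and the mean r of Sgk1 over the region pairs, 0.94, ranked 11 among 16702 genes.

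Fkbp5 recurred as well, with r of 0.71, 0.73 and 0.90 and rho of 0.75, 0.75 and 0.84 (permutation p adjusted over the 30 tests 0.0462, 0.0349 and 0.0028 for r and 0.0394, 0.0363 and 0.0167 for rho). Without the 2 farthest samples r was 0.63, 0.62 and 0.92. Its spread in Shank3-HT mice was narrower than in the other groups, with hippocampal values of 1956, 2047, 2059.7, 2039 and 1941. Hif3a had r of 0.80, 0.84 and 0.68 and rho of 0.76, 0.80 and 0.63 (adjusted permutation p 0.00746, 0.00321 and 0.0271 for r and 0.0167, 0.0115 and 0.0471 for rho), and r of 0.68, 0.70 and 0.60 without the 2 farthest samples. Shank3-HT replicate 3 was the highest and replicate 1 the lowest Hif3a sample of its group in all 3 regions.

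Over the 10 genes, r was above 0 in 30 of 30 comparisons, and both r and rho passed the threshold in 14. These were 3 of 3 for Fkbp5, Sgk1 and Hif3a, 2 for Tsc22d3 and 1 each for Zbtb16, Errfi1 and Sult1a1, and r without the 2 farthest samples was 0.55 to 0.97 in these 14. Nfkbia, Pdk4 and Cdkn1a had 0. Over all genes the median r was itself above 0 (0.13, 0.15 and 0.15 for the 3 region pairs). The share of all genes that would pass was not computed. The mean r ranked 80 for Fkbp5, 85 for Hif3a and 112 for Tsc22d3 among the 16702 genes, and 1835 for Errfi1, the lowest of the 10. For Errfi1 between cortex and striatum r was 0.13 (rho 0.10, adjusted permutation p = 0.702 and 0.751) and -0.18 without the 2 farthest samples. The lowest sample of a genotype had the same number in all 3 regions in 12 of 30 cases (10 genes in 3 genotypes), and the highest in 7 of 30. Over all genes this held in 8.87% of cases for the lowest and 8.6% for the highest.

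**Figure D4:**
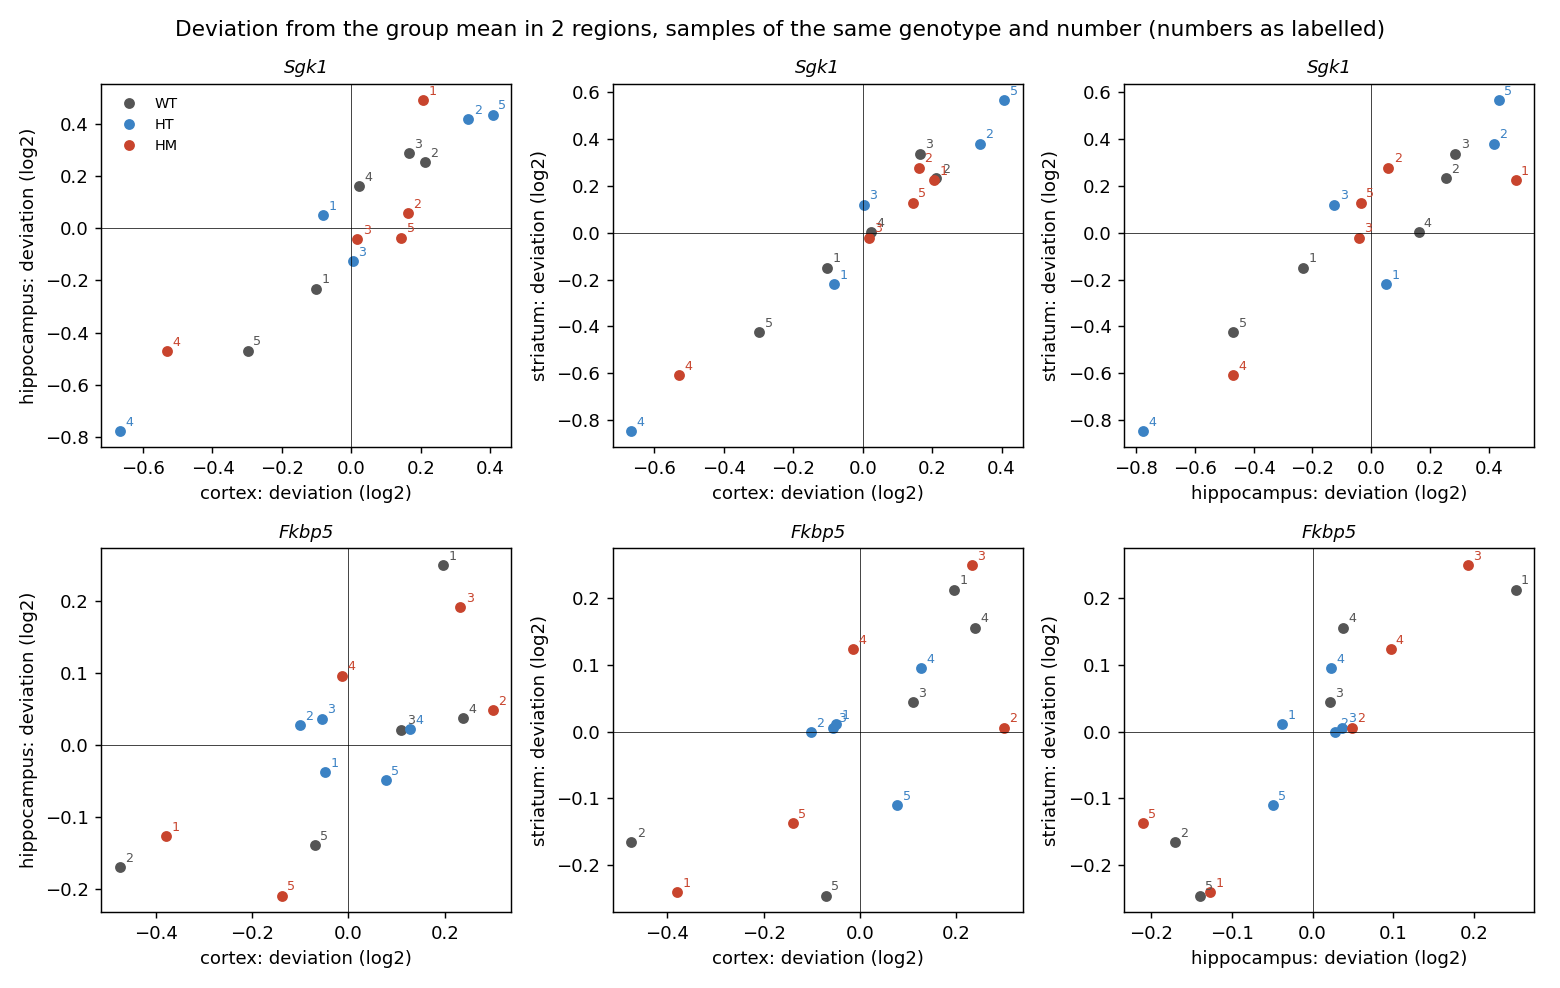
Deviation of each sample from the mean of its genotype and region on the log2(value + 1) scale in one region (horizontal axis) and another (vertical axis), for Sgk1 (top) and Fkbp5 (bottom). Points are pairs of samples of the same genotype and number (15 per panel), with the number beside each point and WT in grey, Shank3-HT in blue and Shank3-HM in red. The Sgk1 points follow a line in all 3 panels, with Shank3-HT number 4 lowest, and the Fkbp5 points scatter more widely.

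The 10 genes did not vary as one block. Over the 45 samples, with group means removed, r was above 0 for 37 of the 45 pairs of genes with a median of 0.34, as a description, since samples of one number may share a mouse. Sgk1 and Nfkbia were the closest pair (0.81), and both ran with Errfi1 (0.54 for each). Zbtb16 and Hif3a formed another close pair (0.63). Tsc22d3 had an r of 0.58 and 0.48 with these genes, and of 0.56 and 0.44 with Sgk1 and Nfkbia. Fkbp5 had a negative r with Sgk1 and Nfkbia, at -0.24 and -0.29, although all 3 had a higher Shank3-HM mean in each region. Within regions the median r over the 45 pairs was 0.17 in cortex, 0.32 in hippocampus and 0.41 in striatum. No such values were computed over other gene pairs, so these are not read as particular to the 10 genes.

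**Figure D5:**
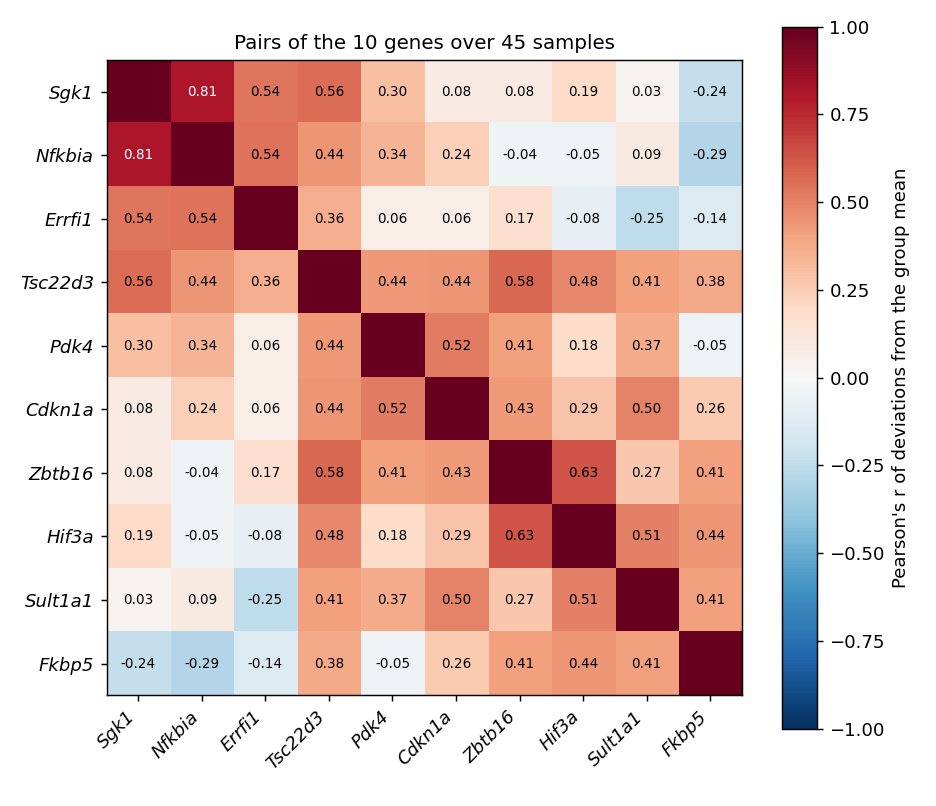
Pearson's r between each pair of the 10 genes over 45 samples, from deviations of log2(value + 1) from the mean of each genotype and region. Colour runs from blue (-1) through white (0) to red (1), and r is printed in each cell. Sgk1 and Nfkbia (0.81) are the closest pair, and Fkbp5 is slightly negative with both.

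Tested within regions (135 tests, 15 samples each), 4 pairs passed the threshold by r and 0 by rho, with 24 at an unadjusted p under 0.05 for r. The share of other gene pairs that would pass was not computed, so these counts are not read as particular to the 10 genes. The 4 pairs were Tsc22d3 with Pdk4 in striatum (r = 0.80, rho = 0.82), Sgk1 with Nfkbia in hippocampus (0.83 and 0.74) and the striatum (0.81 and 0.82), and Nfkbia with Errfi1 in hippocampus (0.83 and 0.66). The permutation p adjusted over the 135 tests was 0.0472 for each r and 0.081, 0.154, 0.117 and 0.216 for rho, and r without the 2 farthest samples was 0.77, 0.68, 0.71 and 0.63. Over the same 15 striatal samples, as a description, Tsc22d3 and Pdk4 had an r of 0.81 and 0.80 with the oligodendrocyte marker sum, and its part in their relation was not tested. In the cortex, Sgk1 with Nfkbia had an r of 0.78 that was 0.40 without the 2 farthest samples (rho = 0.50, adjusted permutation p = 0.135 for r and 0.319 for rho).

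Among genes outside the 10, the pattern most like their mean standardized deviation over the 45 samples was that of Adipor2, an adiponectin receptor gene (r = 0.82). It was followed by Plekhf1 (0.80), Arrdc2 (0.78), which is one of the 30 other glucocorticoid-induced genes, Lrrc8a, a subunit of volume-regulated anion channels (0.76), and Gm19439 (0.75), against a median of -0.01 over 16698 genes. The genes most like Fkbp5 alone were Smim3 (0.68), the receptor tyrosine kinase gene Mertk (0.67), also of the list of 30, Clec12a (0.67), the Wnt receptor gene Fzd2 (0.66) and Nostrin (0.64). None of the 5 genes nearest to Fkbp5 was among the 5 nearest to the mean of the 10.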

How the data were processed

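Per the labels, mRNA of each tissue sample was sequenced, and the submitters' processing notes name Salmon 1.1.0, DESeq2 1.26.0 and R 3.6.2. The deposited signal values are normalized counts per gene (build GRCm38), which the authors divided by DESeq2 normalization factors. They are not scaled by gene length, so levels were not compared between genes. Column sums were 26118607 to 29568983 and do not give the depth, which is unknown. Only 12.7% to 32.0% of low values lay within 0.05 of a whole multiple of one step, where chance gives 10%, so no count test was run.

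Groups were taken from the labels, and gene positions from a GENCODE annotation of GRCm38. Values were tested on the log2(value + 1) scale with limma 3.58.1 in R 4.3.3 (intensity trend, genes with a mean of at least 10, Benjamini-Hochberg adjustment over all genes tested, threshold 0.05, two-sided). Genotypes were compared within a region over its 15 samples, and regions over all 45 samples as 9 groups. The study's methods give 5 mice per group. The labels do not say whether a number marks the same mouse in the 3 regions, and the p-values measure the spread between samples. Correlations were tested by two-sided permutation (100000 draws) within genotypes. Scripts were tested on simulated data.

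The 10 genes and the gene and marker lists were chosen with earlier results of these data known. Named genes were the 10, the 3 genes of each pathway list with the smallest p per region comparison in WT mice, the 5 genes most like the mean of the 10 and the 5 most like Fkbp5, and Shank3. One gene that the rule names is not reported here. Alternatives were quantile normalization, no filter or a minimum mean of 100, 0.1 as the pseudocount, no trend, a replicate block, only the WT samples, and leaving out each replicate.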

Additional observations from a re-analysis of the deposited data

Results flagged for a closer look

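In 7 of 90 groups of 5 samples (10 genes in 9 groups), 1 sample lay so far from the other 4 that its gap exceeded 0.71 of the range of the group, the critical value of Dixon's test at 95%. Chance flags about 1 in 20 groups. All 7 were high values. Zbtb16 was 2697 in cortex WT replicate 4, where the other 4 samples lay between 1697 and 1876. It was 892 in striatum Shank3-HT replicate 3, against 403 to 528. In hippocampus WT replicate 4, the library with the highest choroid plexus marker sum, Cdkn1a was 267 (others 145 to 157) and Sult1a1 was 409 (others 239.6 to 273).

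Sult1a1 was also high in hippocampus Shank3-HM replicate 3 at 478 (others 298 to 319), the library with the highest choroid plexus marker sum of its group, 92851. The part of choroid plexus RNA in these values was not tested. Pdk4 was 343 in hippocampus Shank3-HM replicate 5, where the other 4 spanned 319.7 to 323, so that the flag rests on a narrow group. Errfi1 was 868 in striatum WT replicate 1 (others 748 to 781).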

How the results depend on the processing

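Over the alternatives, the counts of calls and the Shank3-HM summaries kept within 1.5 times their value or the replicate spread in 388 cases and moved further in 2. Both exceptions concerned the hippocampus minus cortex count, 3 in the reported fit, which was 7 with a replicate block and 3 to 5 when 1 replicate was left out. With the block, the counts were 8 for striatum minus cortex and 8 for striatum minus hippocampus, and 0 for Shank3-HT in each region. The numbers did not meet the criterion for pairing, an r above 0.1 in every pair. Over all genes, r between samples of the same genotype and number was -0.09 to 0.21 for cortex with hippocampus (7 of 15 correlated best with their own number), -0.10 to 0.23 for cortex with striatum (8 of 15) and 0.04 to 0.20 for hippocampus with striatum (11 of 15), where 3 of 15 would be best by chance, a hint of pairing from the data and not from the design. With the block, both neighbouring Sgk1 steps in WT mice passed (adjusted p = 1.9e-07 and 0.00066), as did both Hif3a differences from cortex (0.00076 and 0.00027). Of tested single-gene differences, 961 kept direction and call, 18 gained a call, 6 lost one and 35 changed sign, and none of these causes was tested. Hif3a striatum minus hippocampus was 0.038 with quantile normalization. When 1 replicate was left out, sign changes were seen in WT region differences of Zbtb16 (-0.19 to 0.016) and Pdk4 (-0.10 to 0.080) for hippocampus minus cortex, Nfkbia for striatum minus cortex (-0.014 to 0.11) and Hif3a for striatum minus hippocampus (-0.17 to 0.12). They were also seen for Shank3-HT minus WT in cortex for Zbtb16 (-0.11 to 0.067) and Cdkn1a (-0.059 to 0.17), in hippocampus for Fkbp5 (-0.053 to 0.052), Zbtb16 (-0.017 to 0.16), Nfkbia (-0.014 to 0.12) and Sult1a1 (-0.060 to 0.13), and in striatum for Fkbp5 (-0.036 to 0.079), Zbtb16 (-0.083 to 0.26), Hif3a (-0.19 to 0.13) and Cdkn1a (-0.11 to 0.057). Leaving out WT replicate 4 in all 3 regions, chosen after seeing the data, gave 3, 6 and 7 calls between regions and 0 for Shank3-HT. With 5 samples a group and unknown depth, the 95% interval of the Shank3-HT difference included 0 for each gene and region except Sult1a1 in striatum.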
